A study of Mus musculus with 10 samples.

Results

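The unfolded protein response and the integrated stress response were followed through 33 genes in recipient bone marrow (BM). The recipients carried fetal liver hematopoietic stem cells (FL-HSCs), taken from embryos of vitamin D-deficient, VD(−), or vitamin D-sufficient, VD(+), dams. The genes were listed by name for their place in the pathway, and all 33 are among the 19938 genes that the array names. They comprise 14 chaperones and folding factors of the endoplasmic reticulum (ER), 6 genes of ER-associated degradation and the translocon, 3 stress sensors, the transcription factor genes Atf4, Atf3 and Ddit3, and 7 targets of ATF4 and CHOP. For each gene the probe set with the highest mean was read, and 30 of the genes have 1 probe set.

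Proteins that are secreted or placed in membranes fold in the ER, with the help of chaperones, lectins and disulfide isomerases. When unfolded proteins accumulate, the sensors ATF6, IRE1α (Ern1) and PERK (Eif2ak3) are activated. ATF6 is cut and moves to the nucleus, IRE1α splices the mRNA of Xbp1, and both routes raise chaperone and degradation genes through ER stress elements in their promoters. PERK phosphorylates the translation factor eIF2α, which lowers protein synthesis overall and lets ATF4 be translated. Kinases that sense amino acid lack, heme lack or viral RNA act on the same factor, so this branch is called the integrated stress response. In marrow the pathway is best known for plasma cells, which secrete antibody, and for the survival of HSCs. A whole-transcript array measures mRNA levels and sees neither the splicing of Xbp1, the cutting of ATF6 nor the phosphorylation of eIF2α.

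The table holds 10 arrays, 5 per group, and each group has 3 single samples and 2 pools. All mice were of strain C57BL6. The recipients of both groups were lethally irradiated and vitamin D-sufficient, so by design the groups differ in the diet of the dams that carried the donor embryos. Per the methods, donor cells were whole fetal liver cells, HSCs included, mixed from embryos of both sexes. Host cells that survive irradiation may remain in the marrow. The labels give an age of 8 weeks and both sexes, and do not say to which step the age belongs. Per the methods the recipients were 8 weeks old at transplantation, so the marrow came from older mice whatever the label means. The labels name BM as the source, although the treatment field speaks of BM macrophages. It is not stated if the single mice also contributed to the pools, so the p-values below cover only array-to-array spread, which may be technical. Labelling started from 25 ng of amplified RNA. Array medians lay between 4.74 and 4.80 on the log2 scale. The 4 genes of blood cells in general (Ptprc, Spi1, Coro1a and Laptm5) averaged 9.99 to 10.3 per array, and the 3 liver genes measured averaged 3.57 to 3.79. Genes of neutrophils and their precursors averaged 11.4 to 11.8, and those of erythroid cells 9.33 to 9.65, so the arrays carried RNA of marrow cells other than macrophages. In bulk RNA, fewer cells of a type and less RNA per cell cannot be told apart. Y-linked genes averaged 6.64, 6.80 and 5.31 in VD(−) replicate 1, pool 1 and pool 2, against 2.25 to 2.56 in the other 7 arrays. No VD(+) array carried this signal, although the methods describe donor cells mixed from both sexes. The sex of the cells was thus not balanced between the groups. Its part in the differences cannot be fully told apart from that of the diet. Without the 3 arrays with Y-linked signal 21 of the 33 members had estimates that moved by more than 1.5 times or turned sign, many of them near 0. The values of the larger ones stand beside each gene below.

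Part of the promoters of the members carry DNA elements through which both branches are known to act. These are shown here because, where present, they separate the chaperones from the ATF4 targets by sequence and not by level. RefSeq promoters (GRCm38.p6, 250 bases before the start site and 50 after it) were found for 30 of the 33 genes, and not for Atf6, Manf and Hyou1. The ER stress element (ERSE) was searched as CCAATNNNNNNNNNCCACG, the second form (ERSE-II) as ATTGGNCCACG, and the amino acid and stress element bound by ATF4 and its partners (CARE) as TGATGNAA, on both strands. ERSE was present in 8 of these 30 promoters and in 0.12% of all 32544 different promoters of this length. ERSE-II was present in 2, against 0.0369% of all, and CARE in 6, against 3.91% of all. The members were listed for their place in the pathway, so these shares are no test. A match says only that the letters are there.

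The ERSE and ERSE-II matches outside chromosome 8, written 5′ to 3′ on the strand of the motif with the fixed letters in capitals, were as follows. All but that of Syvn1, a ubiquitin ligase gene, lie in chaperone or folding factor promoters.
Hspa5, chr2:34772025-34772043: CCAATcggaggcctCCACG
Hsp90b1, chr10:86705638-86705656: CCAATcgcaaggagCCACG
Hsp90b1, chr10:86705533-86705551: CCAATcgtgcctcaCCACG
Canx, chr11:50325800-50325818: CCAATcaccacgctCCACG
Pdia6, chr12:17266491-17266509: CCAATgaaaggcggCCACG
Dnajc3, chr14:118937827-118937845: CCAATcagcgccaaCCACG
Creld2, chr15:88819520-88819538: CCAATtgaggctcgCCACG
Syvn1, chr19:6046532-6046550: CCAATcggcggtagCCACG
Dnajb11, chr16:22857852-22857862: ATTGGcCCACG

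Calr also held an ERSE and Herpud1 an ERSE-II. Of the 12 chaperone and folding factor genes with a promoter sequence, 7 held ERSE, 1 ERSE-II and none CARE. The 7 ATF4 and CHOP targets showed the opposite, with CARE in 4 (Asns, Nupr1, Chac1 and Trib3) and ERSE in none. The other CARE matches lay in the promoters of Atf3 and Herpud1. The promoters of Sdf2l1, Psat1, Atf4 and Ddit3 held none of these letters. Among the 10 genes with ERSE or ERSE-II the median log2 fold change, VD(−) less VD(+), was 0.058, among the 6 with CARE 0.059, and among the 15 with none of the motifs 0.034.

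**Figure D1:**
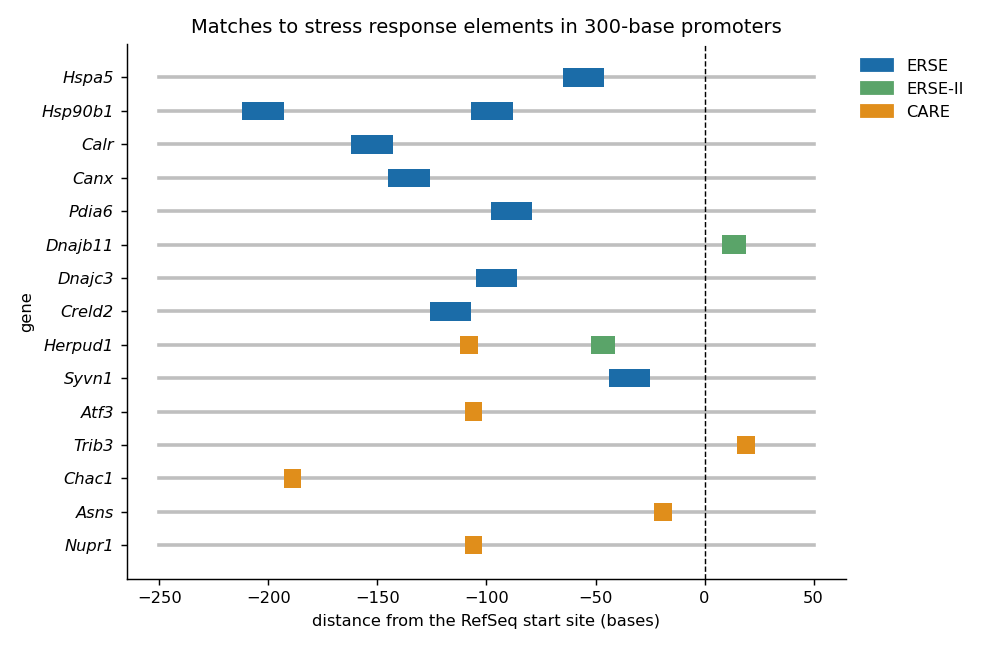
Positions of ERSE (blue), ERSE-II (green) and CARE (orange) matches in the promoters of 15 stress response genes, by distance in bases from the RefSeq start site (dashed line). ERSE lies in 7 chaperone genes and Syvn1, whereas CARE lies in Herpud1, Atf3 and 4 ATF4 and CHOP target genes.

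Whole promoters are shown for the chaperone gene Hspa5, for Creld2, and for the ATF4 targets Asns and Nupr1. Each holds 1 exact match to the searched letters, and their levels are described below. Sites that differ from these letters were not looked for, so a promoter may hold more elements than are marked. The promoters are written 5′ to 3′ on the strand of the gene, with the matched letters in capitals. In Creld2 and Nupr1 the element lies on the other strand and reads as its reverse complement.
Hspa5, chr2:34771840-34772139, plus strand: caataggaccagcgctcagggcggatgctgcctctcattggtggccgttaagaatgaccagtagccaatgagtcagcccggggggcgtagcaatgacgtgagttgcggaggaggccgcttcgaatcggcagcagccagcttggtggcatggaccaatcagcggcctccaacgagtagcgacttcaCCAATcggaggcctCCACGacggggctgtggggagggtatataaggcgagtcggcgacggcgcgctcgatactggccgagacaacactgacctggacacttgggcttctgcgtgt
Creld2, chr15:88819396-88819695, plus strand: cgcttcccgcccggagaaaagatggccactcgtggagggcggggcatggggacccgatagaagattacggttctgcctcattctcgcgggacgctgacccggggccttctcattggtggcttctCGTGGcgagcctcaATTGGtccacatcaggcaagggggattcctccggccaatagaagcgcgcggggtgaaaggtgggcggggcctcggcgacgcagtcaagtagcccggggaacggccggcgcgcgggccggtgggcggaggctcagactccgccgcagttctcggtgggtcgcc
Asns, chr6:7693160-7693459, minus strand: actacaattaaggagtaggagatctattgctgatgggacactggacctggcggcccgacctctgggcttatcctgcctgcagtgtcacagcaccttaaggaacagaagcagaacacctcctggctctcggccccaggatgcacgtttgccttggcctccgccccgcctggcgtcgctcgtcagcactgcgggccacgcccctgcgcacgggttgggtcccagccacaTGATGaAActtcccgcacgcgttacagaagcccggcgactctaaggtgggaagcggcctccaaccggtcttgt
Nupr1, chr7:126625421-126625720, minus strand: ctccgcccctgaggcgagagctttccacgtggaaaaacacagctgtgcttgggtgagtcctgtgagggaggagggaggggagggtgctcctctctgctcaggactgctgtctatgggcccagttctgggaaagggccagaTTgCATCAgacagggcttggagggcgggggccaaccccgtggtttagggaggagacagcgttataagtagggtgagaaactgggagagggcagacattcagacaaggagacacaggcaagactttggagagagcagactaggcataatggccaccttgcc

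Between VD(−) and VD(+) HSC recipient BM no stress response gene differed past an adjusted p of 0.05, and the differences seen were small and mostly toward VD(−). Nupr1, Psat1, Sdf2l1, Atf4 and Creld2 were higher in VD(−) at a nominal p under 0.05, and none was lower. Of these, 2 are ER folding factors, 1 is the ATF4 gene itself and 2 are targets of ATF4. Values are deposited log2 values, a fold change is the VD(−) mean less the VD(+) mean, and tests are two-sided tests of limma over all probe sets with Benjamini-Hochberg adjustment. Over all 19938 genes, 4.05% were higher and 2.95% were lower at the nominal p, and among the 10692 brighter genes (mean above 4.74) 5.96% were higher. The thresholds of the methods add a fold limit to the nominal p, equal to a log2 fold change above 0.25 or below −0.089. They were passed upward by 3 members (Nupr1, Psat1 and Sdf2l1), against 2.35% of all genes, and downward by 0, against 2.95%. An adjusted p under 0.05 was reached by 0.0903% of all genes and by 0 members with limma, and also by 0 members with the methods' t-test. At the nominal p that t-test called 6 members higher and 1 lower, against 4.27% and 3.29% of all genes. No member had groups that do not overlap, which 1.73% of all genes had.

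In 22 of the 33 genes the log2 fold change was above 0, and the median was 0.045. Over all genes 50.3% were above 0, with a median of 0.0010, and over the brighter genes 57.1% were, with a median of 0.020. Standard errors lay between 0.057 and 0.16. In 29 of the members the 95% confidence interval lay within 0.5 of 0 on the log2 scale, so for these genes larger changes in either direction lie outside the interval.

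**Figure D2:**
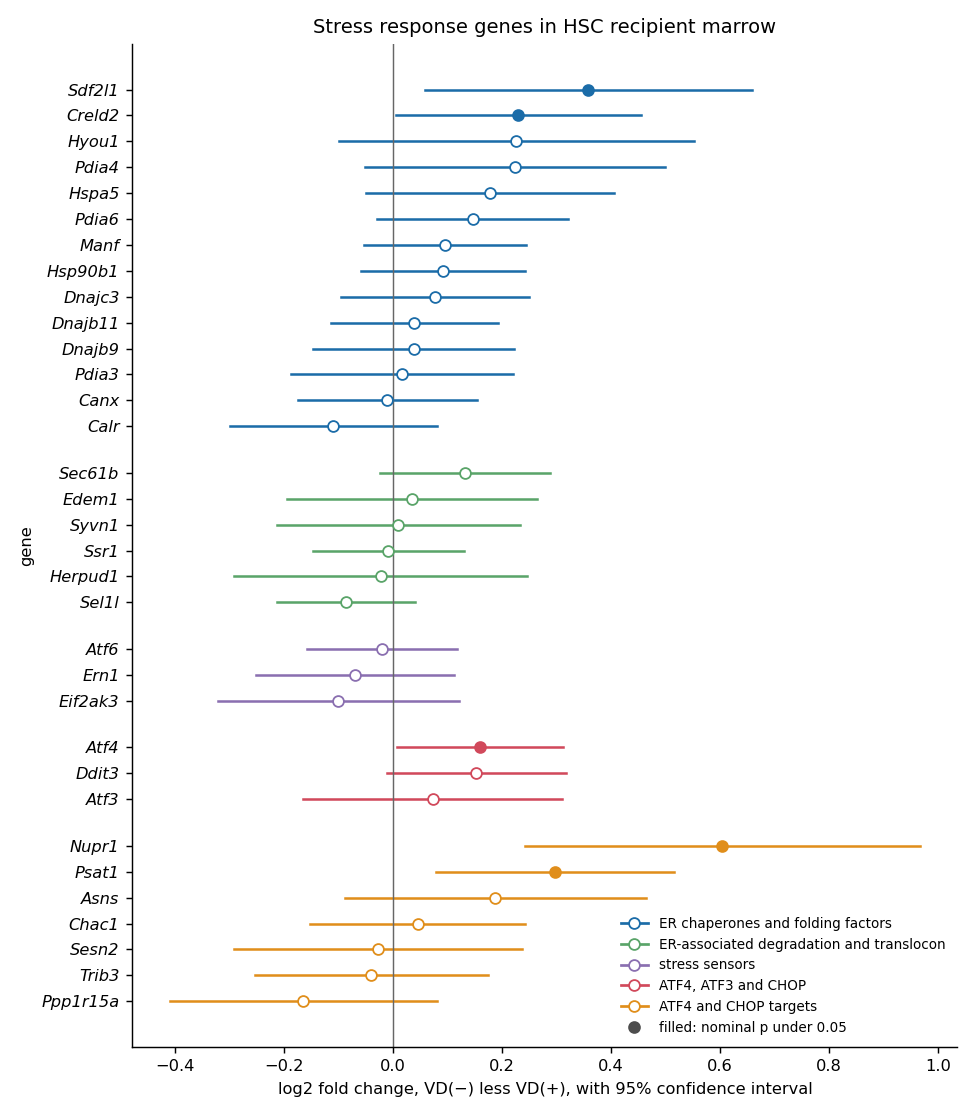
Log2 fold change (VD(−) less VD(+), x axis) of the 33 genes with 95% confidence intervals, coloured by role; filled points have a nominal p under 0.05. The 5 filled points, Sdf2l1, Creld2, Atf4, Nupr1 and Psat1, all lie above 0, and the sensors lie below it.

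The sensors did not differ beyond their error. Atf6, the membrane-bound factor that is cut under stress, was at 7.94 ± 0.070 in VD(−) against 7.96 ± 0.062 in VD(+) (mean ± SD of 5 arrays, as in every group below). For Eif2ak3, which encodes PERK, these means were 7.20 ± 0.21 and 7.30 ± 0.086. Ern1, which encodes IRE1α, was at 6.74 ± 0.10 and 6.81 ± 0.13. The log2 fold changes were −0.020, −0.10 and −0.070, and the limma 95% confidence intervals all contained 0. All 3 estimates were below 0, with a median of −0.070, which was −0.021 without VD(+) replicate 1 and −0.030 without VD(−) replicate 2. Without the arrays with Y-linked signal Atf6 had −0.087 and Ern1 −0.022.

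Atf4, Ddit3 and Atf3 encode the transcription factors downstream of PERK, and their estimates were all above 0, with a median of 0.15. Atf4 had log2 values of 8.54, 8.55 and 8.78 in VD(−) replicates 1 to 3 and 8.56 and 8.63 in the pools. In VD(+) it had 8.45, 8.45 and 8.46 in the replicates and 8.36 and 8.56 in the pools. VD(+) pool 2 was the only VD(+) array that reached into the VD(−) range. The log2 fold change was 0.16 (SE 0.069, limma adjusted p = 0.686, nominal p = 0.0426), and exact permutation over the 10 arrays gave p = 0.0238, with 0.00794 as the smallest possible value. The nominal p rose above 0.05 when VD(+) replicate 1, 2, 3 or pool 1 or VD(−) replicate 3 or pool 2 was left out, and the log2 fold change was 0.12 to 0.18 over all 10 such fits. Without the 3 arrays with Y-linked signal Atf4 had 0.21 and did not pass the nominal p.

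Ddit3, which encodes the factor CHOP, known for its part in cell death after prolonged stress, had a difference of similar size. In VD(−) its log2 values were 7.63, 7.76 and 7.77 in the replicates and 7.85 and 7.76 in the pools. In VD(+) they were 7.41, 7.69, 7.57, 7.63 and 7.70 in the same order. All VD(−) arrays but replicate 1 lay above the highest VD(+) array. The log2 fold change was 0.15 (SE 0.075, limma adjusted p = 0.732, nominal p = 0.0665), with an exact permutation p of 0.0317. Without VD(−) replicate 1 it was 0.18 and passed the nominal p. Atf3, a factor that many stresses switch on quickly, was measured near the array medians, at 4.73 ± 0.081 in VD(−) and 4.66 ± 0.23 in VD(+), with a log2 fold change of 0.072 that was −0.018 without VD(+) replicate 3.

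Among the ER chaperones and folding factors 12 of 14 estimates were above 0, with a median of 0.094 (0.059 without VD(+) replicate 1), and 2 were higher in VD(−) at the nominal p. Sdf2l1, an ER protein that works with the chaperone BiP and its J-domain partners, had the largest estimate of this group. Its log2 values in VD(−) were 7.34, 7.72 and 7.83 in the replicates and 7.39 and 7.63 in the pools. In VD(+) they were 7.04, 7.64, 7.06, 7.25 and 7.13. VD(+) replicate 2 stood well above the other VD(+) arrays, and the remaining VD(+) values lay below every VD(−) value. VD(−) exceeded VD(+) by a log2 fold change of 0.36 (SE 0.14, limma adjusted p = 0.634, nominal p = 0.0235), a 1.28-fold difference, and the exact permutation p was 0.0476. It was 0.55 without the 3 arrays with Y-linked signal. The nominal p was 0.0501 to 0.0594 without VD(+) replicate 1, replicate 3 or pool 2 or without VD(−) replicate 2 or 3.

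Creld2, a secreted ER protein induced by unfolded proteins, had log2 values of 6.74, 6.78 and 7.10 in the VD(−) replicates and 6.75 and 7.03 in the pools. In VD(+) the values were 6.68, 6.86, 6.60, 6.44 and 6.66. Again VD(+) replicate 2 was the one VD(+) array inside the VD(−) range. The log2 fold change was 0.23 (SE 0.10, limma adjusted p = 0.695, nominal p = 0.0466), and the exact permutation test gave p = 0.0714. The nominal p lay between 0.061 and 0.114 without VD(+) replicate 1, 3, pool 1 or pool 2 or VD(−) replicate 3 or pool 2. Without the arrays with Y-linked signal Creld2 had 0.29 and did not pass the nominal p.

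Hspa5 encodes BiP, the main Hsp70 chaperone of the ER lumen, which also binds the sensors in unstressed cells. Its log2 values were 9.68, 9.57, 9.75, 9.74 and 9.73 in VD(−) and 9.17, 9.74, 9.64, 9.59 and 9.44 in VD(+), in the order replicates 1 to 3, pools 1 and 2. The VD(−) arrays lay close together, and the VD(+) arrays spread around a low replicate 1. For Hspa5 the log2 fold change was 0.18 (SE 0.10, limma adjusted p = 0.773, 95% confidence interval −0.050 to 0.41). Without VD(+) replicate 2 it was 0.23, with a nominal p of 0.0463, and without VD(+) replicate 1 it was 0.092.

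The cofactors of BiP varied in the same range. Hyou1, the exchange factor that resets BiP, had a log2 fold change of 0.23 with a wide spread (6.99 ± 0.30 in VD(−), 6.77 ± 0.20 in VD(+)), and without VD(−) pool 1 it was 0.33, with a nominal p of 0.0315. Without VD(−) replicate 3 Hyou1 had 0.13, and without the arrays with Y-linked signal 0.34. The J-domain genes Dnajb9, Dnajb11 and Dnajc3, whose proteins bring unfolded clients to BiP, had 0.037, 0.039 and 0.077, and with 1 array left out they ranged from 0.0016 to 0.097, from 0.013 to 0.078 and from 0.025 to 0.12. Hsp90b1, the ER form of Hsp90, had 0.092. Manf, a small secreted protein released under ER stress, had 0.095 (8.05 ± 0.055 and 7.96 ± 0.10), and 0.054 without VD(+) replicate 1.

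Of the disulfide isomerase genes, Pdia4 had 0.22 (8.07 ± 0.21 in VD(−), 7.85 ± 0.21 in VD(+)), Pdia6 0.15 (8.39 ± 0.11 and 8.24 ± 0.11) and Pdia3 0.016 (9.40 ± 0.11 and 9.38 ± 0.16). Pdia4 was 0.44 in the single samples alone, where it passed the nominal p of limma, and −0.099 in the pools alone, so its direction was not the same in both kinds of sample. Without VD(+) replicate 1 Pdia4 had 0.14, and without the arrays with Y-linked signal it had 0.42 and passed the nominal p. A second, dimmer probe set of Pdia4 had 0.33. The lectin chaperones Calr and Canx, which hold glycoproteins in the ER until they are folded and with which Pdia3 works, had −0.11 (9.87 ± 0.15 and 9.98 ± 0.10) and −0.011 (10.04 ± 0.11 and 10.05 ± 0.085). They were the 2 members of this group with estimates below 0, and Calr had 0.026 without the arrays with Y-linked signal.

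**Figure D3:**
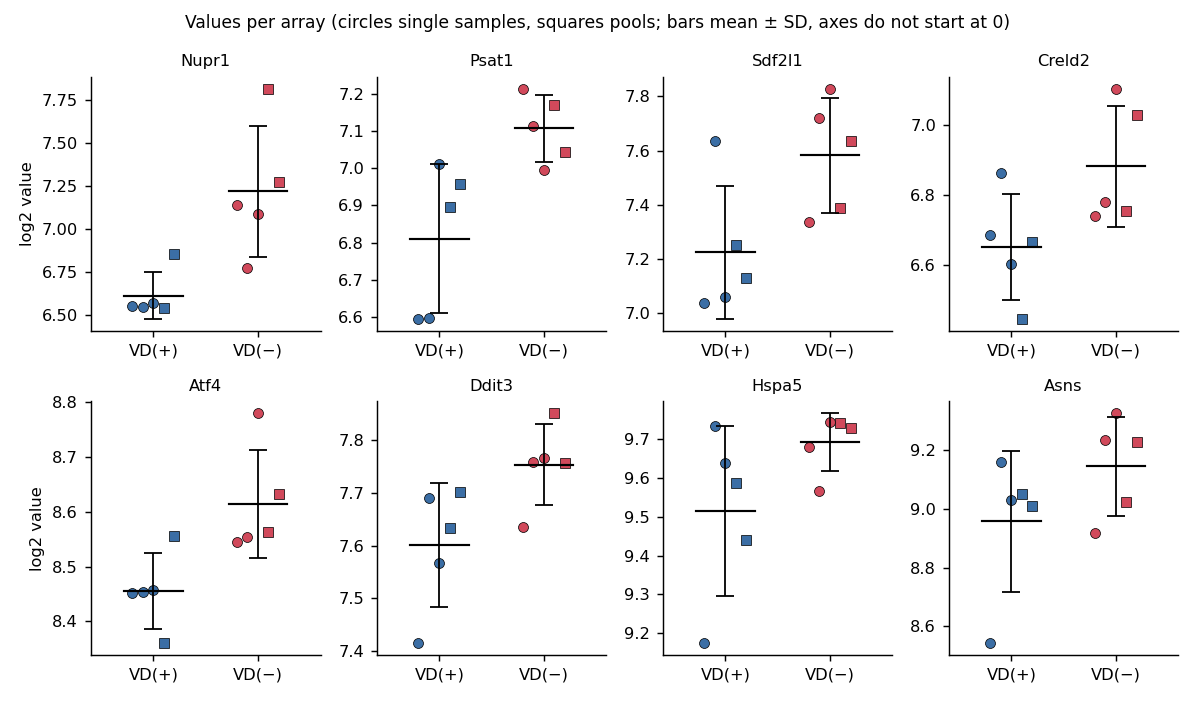
Log2 values of 8 stress response genes on each of the 10 arrays, with mean and SD per group (circles single samples, squares pools). For Nupr1 and Psat1, 4 of the 5 VD(−) arrays lie above every VD(+) array, whereas Hspa5 and Asns are spread downward by VD(+) replicate 1.

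The genes of ER-associated degradation and the translocon had estimates on both sides of 0, with 3 of 6 above it and a median of 0.00028. Sec61b, a subunit of the channel through which proteins enter the ER, had 0.13 (10.3 ± 0.090 in VD(−), 10.2 ± 0.089 in VD(+), limma adjusted p = 0.747), and 4 of its 5 VD(−) arrays lay above all VD(+) arrays. Without VD(−) replicate 3 it was 0.17 and passed the nominal p. Its other 2 probe sets had 0.097 and 0.11. Sel1l, the adaptor that holds the ubiquitin ligase HRD1 in the ER membrane, had the lowest estimate, −0.087. Its log2 values were 7.30, 7.30 and 7.34 in the VD(−) replicates and 7.39 and 7.40 in the pools, against 7.47, 7.45, 7.47, 7.35 and 7.43 in VD(+). The VD(−) replicates lay below every VD(+) array, and the VD(−) pools did not. Its exact permutation p was 0.0317, its nominal p was 0.157 in limma and 0.0227 in the methods' t-test, and in the pools alone the estimate was 0.0051.

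For Syvn1, which encodes HRD1, the log2 fold change was 0.0094. Edem1, which marks misfolded glycoproteins for removal, had 0.034 (7.85 ± 0.15 and 7.82 ± 0.18), which was 0.18 without the arrays with Y-linked signal and −0.029 without VD(+) replicate 3. Herpud1, a stress-induced scaffold of the HRD1 complex whose promoter holds both ERSE-II and CARE, had −0.023 (8.04 ± 0.18 and 8.06 ± 0.22), and its arrays spread widely in both groups. Ssr1, a subunit of the complex that associates with the translocon, had −0.0089 (9.07 ± 0.082 and 9.08 ± 0.051).

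Targets of ATF4 and CHOP held the largest single difference, in Nupr1, but as a group they did not share a direction, with 4 of 7 estimates above 0 and a median of 0.045 (−0.0065 without VD(−) replicate 3, 0.18 without the arrays with Y-linked signal). Nupr1, a small nuclear protein induced by many stresses, had log2 values of 7.14, 6.78 and 7.09 in the VD(−) replicates and 7.81 and 7.27 in the pools. In VD(+) it had 6.55, 6.55, 6.57, 6.54 and 6.86. All VD(+) arrays but pool 2 lay within 6.54 to 6.57, and only VD(−) replicate 2 fell below VD(+) pool 2. The log2 fold change was 0.60 (SE 0.16, 95% confidence interval 0.24 to 0.97, limma adjusted p = 0.428, nominal p = 0.00384), a 1.52-fold difference, and the exact permutation p was 0.0159. It kept a nominal p under 0.05 when each array was left out in turn (0.45 to 0.71). The difference was 0.44 in the single samples and 0.84 in the pools, and the VD(−) arrays with Y-linked signal held the 3 highest values. Without those 3 arrays it was 0.32 and still passed the nominal p, and with a covariate for this signal (Y-linked genes minus Xist) it was 0.34 and did not.

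Psat1, an aminotransferase of serine synthesis, had log2 values of 7.21, 7.11, 6.99, 7.17 and 7.04 in VD(−) and 6.59, 6.60, 7.01, 6.90 and 6.96 in VD(+). Replicates 1 and 2 of VD(+) lay far below all other arrays, and VD(−) replicate 3 was the one VD(−) array under the highest VD(+) array. Between the group means the log2 fold change was 0.30 (SE 0.099, limma adjusted p = 0.563, nominal p = 0.0126, 1.23-fold), with an exact permutation p of 0.0159. The nominal p stayed under 0.05 when each array was left out in turn, but not in the pools alone, where the estimate was 0.18, nor without the 3 arrays with Y-linked signal, where it was 0.24.

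Asns, which makes asparagine and is a classical target of the CARE element printed above, had log2 values of 8.92, 9.23, 9.33, 9.02 and 9.23 in VD(−) and 8.54, 9.16, 9.03, 9.05 and 9.01 in VD(+). VD(+) replicate 1 was the lowest array by a wide margin. The difference between the groups was 0.19 (log2, SE 0.12, limma adjusted p = 0.801), and with the Y-linked covariate it was 0.35 and passed the nominal p. Without VD(+) replicate 1 Asns had 0.083, and without the arrays with Y-linked signal 0.32.

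The remaining targets showed no difference beyond their spread. Chac1, which breaks down glutathione, had 0.045 (5.66 ± 0.16 in VD(−), 5.62 ± 0.10 in VD(+)), Trib3, a pseudokinase that acts on AKT and ATF4, had −0.040 (5.03 ± 0.14 and 5.07 ± 0.16), and Sesn2, a leucine sensor upstream of mTORC1, had −0.028 (5.88 ± 0.24 and 5.90 ± 0.14). Without the arrays with Y-linked signal Chac1 had 0.18, Trib3 −0.075 and Sesn2 0.13. Ppp1r15a, whose product GADD34 brings the phosphatase that reverses eIF2α phosphorylation, had the lowest estimate of all members, −0.17 (SE 0.11, limma adjusted p = 0.802, 8.36 ± 0.20 and 8.52 ± 0.16). The immediate early genes, which handling of cells is known to switch on together, had estimates below 0 in 11 of 12, with list means of 5.67 to 6.22 in VD(−) and 6.04 to 6.48 in VD(+). The VD(−) arrays with Y-linked signal held the lowest of these list means, 5.67 to 6.02, whereas the other VD(−) arrays had 6.09 and 6.22, inside the VD(+) range. The part of these immediate early genes in the values of Ppp1r15a and Atf3 was not tested.

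Arrays of the same group differed from each other, but not in the same way in every role group. VD(+) replicate 1 had the lowest value of the 10 arrays in 12 of the 33 genes, 7 of them chaperones or folding factors. Its mean of the sensors, 7.43, was the highest of the 10 arrays. VD(−) replicate 3 had the highest value in 11 genes, 6 of them of that group. VD(+) replicate 2 had the highest value in 5 chaperone or folding factor genes, among them Calr and Pdia3. Mean levels of the 14 chaperone and folding factor genes were 8.61 ± 0.064 in VD(−) and 8.50 ± 0.093 in VD(+), and 2 of 5 VD(−) arrays lay above every VD(+) array. For Atf4, Atf3 and Ddit3 together the means were 7.03 ± 0.051 and 6.91 ± 0.080, and for the 7 targets 6.91 ± 0.043 and 6.79 ± 0.060, and in both 4 of 5 VD(−) arrays lay above every VD(+) array. Without Nupr1, an alternative chosen after seeing the data, the mean of the other 6 targets was 6.86 ± 0.057 and 6.81 ± 0.052, the difference fell from 0.13 to 0.049, and 2 of 5 VD(−) arrays lay above every VD(+) array. The mean of the degradation and translocon genes was 8.38 ± 0.037 and 8.37 ± 0.057, and that of the sensors 7.29 ± 0.066 and 7.36 ± 0.052.

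**Figure D4:**
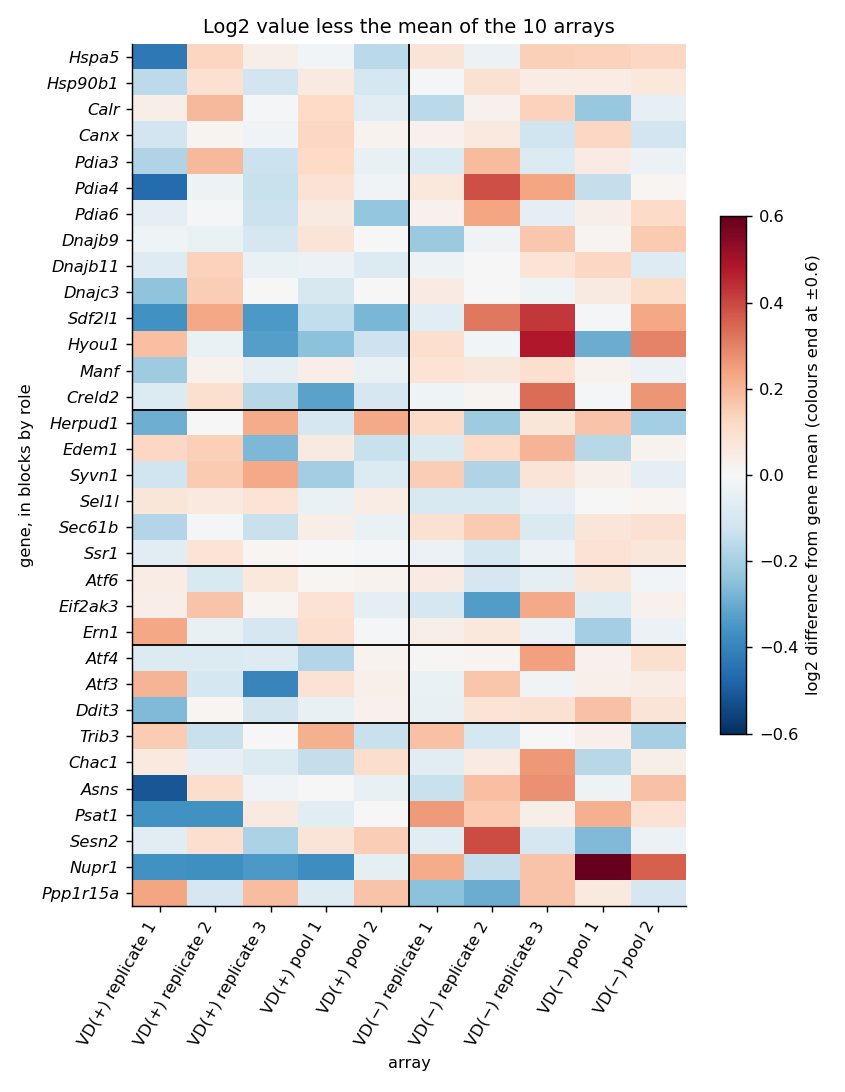
Log2 value of each of the 33 genes (rows, in blocks by role) on each of the 10 arrays (columns), less the gene's mean over the arrays. VD(+) replicate 1 is blue in much of the chaperone block, Nupr1 is blue in the VD(+) arrays, and the largest red cells are Nupr1 in VD(−) pool 1 and Hyou1 in VD(−) replicate 3.

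**Figure D5:**
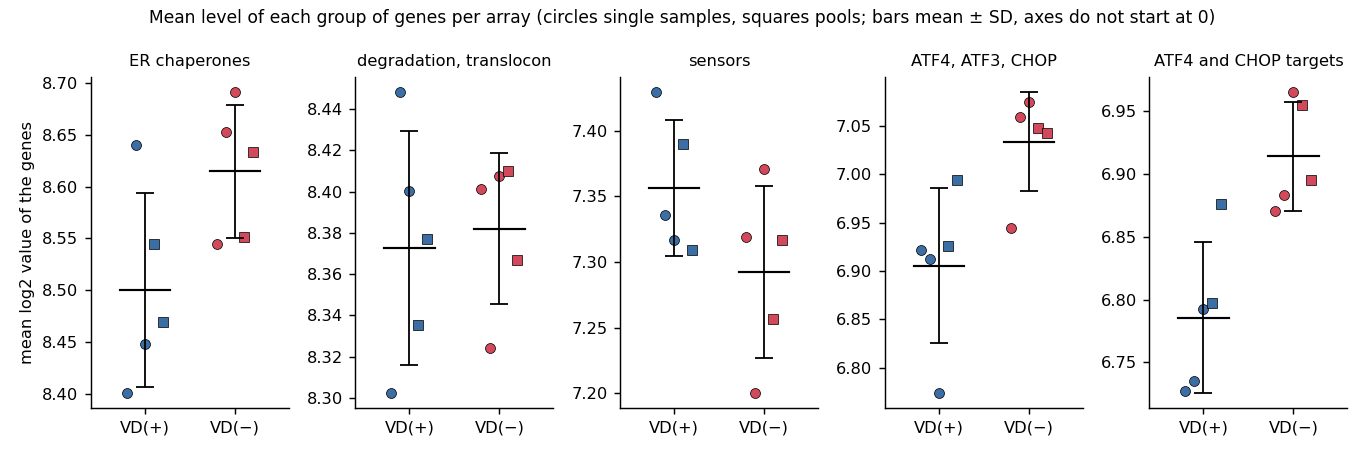
Mean log2 value per array of the genes in each of the 5 role groups, with mean and SD per treatment group (circles single samples, squares pools). The VD(+) and VD(−) arrays overlap in every panel, and 4 of 5 VD(−) arrays exceed all VD(+) arrays for the ATF4, ATF3 and CHOP genes and for their targets (2 of 5 for the targets without Nupr1).

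Other genes of the pathway were read from lists by role, 121 genes measured in all. Of these, 83 had estimates above 0, with a median of 0.040, 8 (6.61%) were higher and 3 (2.48%) lower at the nominal p, and 0 passed the adjusted p. At the nominal p 4.05% of all genes were higher and 2.95% lower, and of the 10692 brighter genes 5.96% were higher and 288 were lower. The share of higher pathway genes thus lay above that of all genes and near that of the brighter genes. The share of lower pathway genes lay near the background. Of the 3 genes of smallest nominal p in each list of pathway or heat shock genes, 11 passed the nominal p. Spcs3 alone of these kept it when each array was left out in turn. The others lost it without at least 4 of the 10. In the list of other translocon, signal peptidase and oligosaccharyltransferase genes 15 of 18 estimates were above 0, with a median of 0.085, and 4 were higher at the nominal p. Spcs3, a subunit of the signal peptidase that trims secreted proteins, had log2 values of 9.99 to 10.2 in VD(−) and 9.77 to 9.93 in VD(+), without overlap. Its log2 fold change was 0.23 (SE 0.066, limma adjusted p = 0.471), with the smallest nominal p of these lists. The other genes were Dad1 (0.15), a subunit of the oligosaccharyltransferase, Sec11a (0.22), the catalytic subunit of signal peptidase, and Rpn2 (0.14). Rpn2 was named after its value was seen and is not among those 11. Without the arrays with Y-linked signal Dad1 had 0.13 and Sec11a 0.17, and neither passed the nominal p. Sec11a had 0.14 without VD(+) replicate 1.

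In the list of other ER folding factors 14 of 22 estimates were above 0, with a median of 0.028, and Mogs, the glucosidase that starts the trimming of glycans, was the one gene higher at the nominal p (0.22, and 0.33 without the arrays with Y-linked signal), while Txndc11 had −0.15 and Fkbp2 0.15. Txndc11 had −0.28 without those arrays and passed the nominal p. In that of other degradation genes 10 of 19 were above 0, with a median of 0.014. Ube2j2, a ubiquitin-conjugating enzyme of the ER, was higher (0.21, but 0.14 and not past the nominal p without the arrays with Y-linked signal), and Vcp, the ATPase that pulls proteins out of the ER membrane, was lower (−0.14), with 8.75 to 8.94 in VD(−) and 8.97 to 9.03 in VD(+), without overlap. Aup1 had 0.13.

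None of the 13 other regulators of the unfolded protein response passed the nominal p, and their median was 0.0078. Xbp1, the target of IRE1α, was at 7.74 ± 0.10 in VD(−) and 7.62 ± 0.070 in VD(+), and the log2 fold change was 0.13 (limma adjusted p = 0.754, nominal p = 0.0978, exact permutation p = 0.0714). Creb3l1 had 0.33 and Map3k5 −0.18, which were 0.18 and 0.011 without the arrays with Y-linked signal. Among the 13 eIF2 kinase and eIF2 machinery genes the median was 0.061. The heme-sensing kinase gene Eif2ak1 was lower (−0.15), with a limma nominal p of 0.04997, right at the limit. It passed the nominal p in 2 of the 10 fits with 1 array left out. Without the arrays with Y-linked signal Eif2ak1 had −0.18 and did not pass it. Eif2b1 had 0.23 (0.14 without the arrays with Y-linked signal or without VD(+) replicate 1) and Oma1 0.15 (0.094 without VD(+) replicate 3).

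Other ATF4 targets of amino acid supply had estimates above 0 in 13 of 16, with a median of 0.10. Mthfd2, a mitochondrial enzyme of one-carbon metabolism, was higher at the nominal p, with 6.58, 7.32, 7.36, 6.80 and 7.21 in VD(−) and 6.13, 7.04, 6.52, 6.88 and 6.40 in VD(+). Its log2 fold change was 0.46 (SE 0.20, limma adjusted p = 0.692), and 0.75 without the arrays with Y-linked signal. Gpt2, an alanine aminotransferase, was lower (−0.20), but had −0.16 and did not pass the nominal p without those arrays. The cystine transporter gene Slc7a11 had 0.36, which was 0.67 and passed the nominal p without them. Of the 10 other ATF4-regulated regulators and secreted factors 5 were above 0. Eif4ebp1, a repressor of cap-dependent translation, was higher (0.17, groups without overlap), while Cebpg had 0.17 and Ddit4 −0.24. Without the arrays with Y-linked signal Eif4ebp1 had 0.22 and did not pass the nominal p, Cebpg had 0.26 and Ddit4 0.076. Ddit4 had −0.10 without VD(+) replicate 1. All 10 aminoacyl-tRNA synthetase genes measured had estimates above 0, with a median of 0.12, but none passed the nominal p, with Eprs at 0.23, Iars at 0.17 and Tars at 0.25. Without VD(+) replicate 1 Eprs had 0.13 and Tars 0.096.

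For contrast with the ER, the cytosolic heat shock genes had estimates above 0 in 6 of 7, with a median of 0.13, and Hsph1 was higher at the nominal p (0.47, SE 0.20, limma adjusted p = 0.671), and it had 0.73 without the arrays with Y-linked signal. Hsp90aa1 had 0.18 and Hspb1 0.16.

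Markers of other cell types were read beside these results. All 8 monocyte and macrophage genes measured had estimates above 0, 5 of them at the nominal p, from 0.022 for Csf1r to 1.70 for Cd14 (limma adjusted p = 0.0109), and their list mean was 7.54 to 7.71 in VD(−) and 6.76 to 7.26 in VD(+), without overlap and lowest in VD(+) replicate 1. Plasma cell genes, whose cells are rich in ER, had estimates above 0 in 5 of 9, with list means of 6.19 to 6.63 in VD(−) and 6.20 to 6.47 in VD(+). Mature B cell genes had 1 of 7 above 0, with 7.22 to 7.44 and 7.29 to 7.72, and 3 were lower at the nominal p. Fcer2a among them had −0.58 (limma adjusted p = 0.0305), with groups that do not overlap. The part of these cells in the levels of Nupr1, Psat1, Sdf2l1, Atf4 and Creld2 was not tested.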

How the data were processed

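Total RNA of 10 BM samples was read on whole-transcript arrays. The authors deposited log2 values made in Partek with RMA, per the submitters' processing notes. RMA equalizes the arrays' distributions, so overall differences in RNA amount are removed. Array depth is not a count, and the number of arrays limits the precision. In the array annotation 21789 of 35556 probe sets list 1 gene, 1621 several and 12146 none. The brightest probe set per gene was used, and 0 sample columns were left unused. Groups came from the sample labels. limma 3.58.1 (R 4.3.3, lmFit and eBayes) was fitted to all probe sets without covariates, tested on simulated data, and single genes were also tested by exact permutation of the 5 arrays against 5 (Python 3.11.15). All members were named, with the 3 genes of smallest nominal p of each pathway list and Xbp1. Markers were read as lists, and Csf1r, Cd14 and Fcer2a were named for their own values. No relation of a marker to a member was tested. The members and lists were chosen with earlier results of these data known. Motifs were searched in RefSeq promoters. Alternatives, 22 in all, were another test, normalization, weighting, spread, probe set choice, covariates, a replicate block, subsets and each array left out.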

Additional observations from a re-analysis of the deposited data

Results flagged for a closer look

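In 4 of 78 groups of 5 arrays 1 array stood apart from the others by Dixon's test, and chance gives about 1 in 20. Dnajb11 had its highest VD(+) log2 value, 8.32, in replicate 2, with 0.786 of the range of the group between it and the next array. Asns had its lowest VD(+) value, 8.54, in replicate 1, with 0.758 of the range. Without these arrays Dnajb11 had a log2 fold change of 0.078 in place of 0.039, and Asns 0.083 in place of 0.19. Nupr1 had its highest VD(+) value, 6.86, in pool 2, with 0.911 of the range. The mean of Atf4, Atf3 and Ddit3 had its lowest VD(−) value, 6.94, in replicate 1, with 0.759 of the range. Without VD(+) pool 2 the log2 fold change of Nupr1 was 0.66.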

How the results depend on the processing

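The count of members at an adjusted p was 0 under all 22 alternatives, and no called member changed sign. The replicate numbers did not pair the samples, since correlations of same-numbered deviations lay between −0.052 and 0.061. With them as a block 3 members were higher and 4 other pathway genes were higher and 0 lower at the nominal p. In that fit 3.51% of all genes were higher and 2.67% lower. The count of members higher at the nominal p, 5, was also 3 with cyclic loess, with pool or single as a covariate, in the single samples alone and without the arrays with Y-linked signal, and 1 in the pools alone, and leaving out 1 array gave 2 to 7. The 2 came without VD(+) replicate 1 or 3. Of all genes 4.05% were higher in the fit without covariates, 3.84% with cyclic loess and 3.85% with pool or single as a covariate. The share was 1.84% in the single samples, 1.9% in the pools and 3.08% without the arrays with Y-linked signal. It was 3.14% to 4.35% with 1 array left out. The methods' t-test called 1 member lower, Sel1l, and 3.29% of all genes. At the thresholds of the methods the 3 members became 1 in the pools alone and 1 to 6 with 1 array left out (1 without VD(+) replicate 1, 6 without VD(−) pool 1).

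Of the other pathway genes, 8 higher became 5 with array weights, 4 with cyclic loess, 2 in the pools and 0 in the single samples, and 2 to 11 with 1 array left out. Over all genes the 4.05% higher became 3.98%, 3.84%, 1.9% and 1.84% in the same order, and 3.14% to 4.35% with 1 array left out. The 3 lower pathway genes became 5 with the Y-linked covariate, 1 with the mean of all probe sets or the pool covariate, 0 in the pools and 0 in the single samples, and 0 to 4 with 1 array left out. Over all genes the 2.95% lower became 3.33% with the Y-linked covariate, 3.46% with the mean of all probe sets and 2.9% with the pool covariate. It was 1.3% in the pools, 1.63% in the single samples and 2.42% to 3.17% with 1 array left out. The median of all members was 0.11 with the Y-linked covariate, 0.11 without the arrays with Y-linked signal and 0.10 in the single samples. That of the degradation genes was −0.057 and −0.061 under the first 2 of these. That of the ATF4 and CHOP targets was 0.18 with the covariate, 0.18 without those arrays, 0.13 in the single samples and −0.046 in the pools. With 1 array left out it ranged from −0.0065 (without VD(−) replicate 3) to 0.093 (without VD(−) pool 1), that of the chaperones from 0.059 to 0.12, of the sensors from −0.10 to −0.021 and of the degradation genes from −0.025 to 0.030. The mean level of the targets differed by 0.13, and by 0.049 without Nupr1. The causes were not tested. Of 725 member values under alternatives, 37 lost the nominal p, 14 gained it, and 49 changed sign, none of them past the nominal p.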
